A study of Homo sapiens with 8 samples.

Results

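Meiosis and piRNA pathway genes are a set of 40 germline genes, picked by symbol from a table of 63677 genes measured in the LY2 breast cancer line. A member was tested if it had at least 10 normalized reads in at least 4 of the 8 libraries, and 19 of the 40 met that rule. The other 21 are listed below as silent or nearly so. The measured level therefore chose which members were tested, and the list itself was drawn up with earlier results of these data in view.

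LY2 cells derive from MCF-7 breast cancer cells and resist endocrine therapy. The shSRC1 cells stably carried short hairpin RNA against NCOA1, the gene of the coactivator SRC-1, and the shNT cells a non-targeting hairpin. Both were grown in charcoal-stripped serum with 4-hydroxytamoxifen at 1e-08 mol/L and with puromycin at 500 ng/mL to keep the hairpin, kept without steroids for 72 h, and treated with 4-hydroxytamoxifen at 1e-07 M for 8 h before poly(A) RNA was sequenced. There were 4 libraries per group, and the labels do not say whether these came from separate cultures, so p-values measure only the spread between libraries, which may be technical. The labels do not say whether each line is a clone or a pool, nor how many hairpins were used.

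In meiosis, homologous chromosomes are held along an axis of meiosis-specific cohesin, zipped together by the synaptonemal complex, and exchange DNA at programmed breaks. In the germline, piRNAs are small RNAs carried by PIWI proteins, which silence transposons, and Tudor-domain proteins serve as scaffolds for that machinery. Most of these genes are kept off in somatic tissue, and some are switched on in tumours, where the products are called cancer-testis antigens.

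A normalized read is 1 read after scaling of each library by its size factor. The libraries held 33771775 to 66248960 reads assigned to genes in shSRC1 and 58459196 to 67022036 in shNT, the lowest being shSRC1 replicate 2. NCOA1 averaged 2036 ± 151 normalized reads in shSRC1 and 4396 ± 137 in shNT (SD, n = 4 each), a difference of -1.11 ± 0.08 (SE) on the log2 scale (adjusted p = 2.25e-07 by limma). Luminal epithelial markers summed to 609510 to 679302 normalized reads in shSRC1 and 393803 to 507158 in shNT, and 4 of the 10 were higher, 0 lower; the part of this in the members' values was not tested. Leukocyte markers summed to 43.7 to 82.5 in shSRC1 and 52.9 to 123.5 in shNT, with PTPRC at 3.42 on average in shSRC1 and 3.43 in shNT, and CD3E at 0.23 in shSRC1 and 0.22 in shNT. Fibroblast markers summed to 1452 to 1978 in shSRC1 and 1634 to 2189 in shNT, nearly all from COL1A1, with PDGFRA and THY1 at 1.60 or less on average. Limma passed none of the 5 tested fibroblast and 3 tested leukocyte markers, also without adjustment (0 of each), as did edgeR and DESeq2.

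Among the 19 tested members, 7 were lower in shSRC1 and 12 did not pass an adjusted p of 0.05. Across all 19559 tested genes, 11.2% were lower and 12.0% higher by the same test. None of the 19 was higher in limma, also at an unadjusted p under 0.05 (0 members), nor in edgeR or DESeq2. The groups did not overlap in 7 members, all lower in shSRC1, and across tested genes this held for 12.1%. The median log2 fold change of the 19 was -0.27, beside -0.0025 for all tested genes. Of the 19, 5 passed with a log2 fold change of -1 or less (TDRD1, HFM1, STAG3, TEX14 and TEX15), beside 1.78% of all tested genes. TDRD1 and HFM1 passed the filter only through their shNT levels, and the list was drawn up with these results known, so the counts and the median support nothing about the set. In bulk RNA, fewer cells with a transcript and less transcript per cell cannot be told apart.

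**Figure D1:**
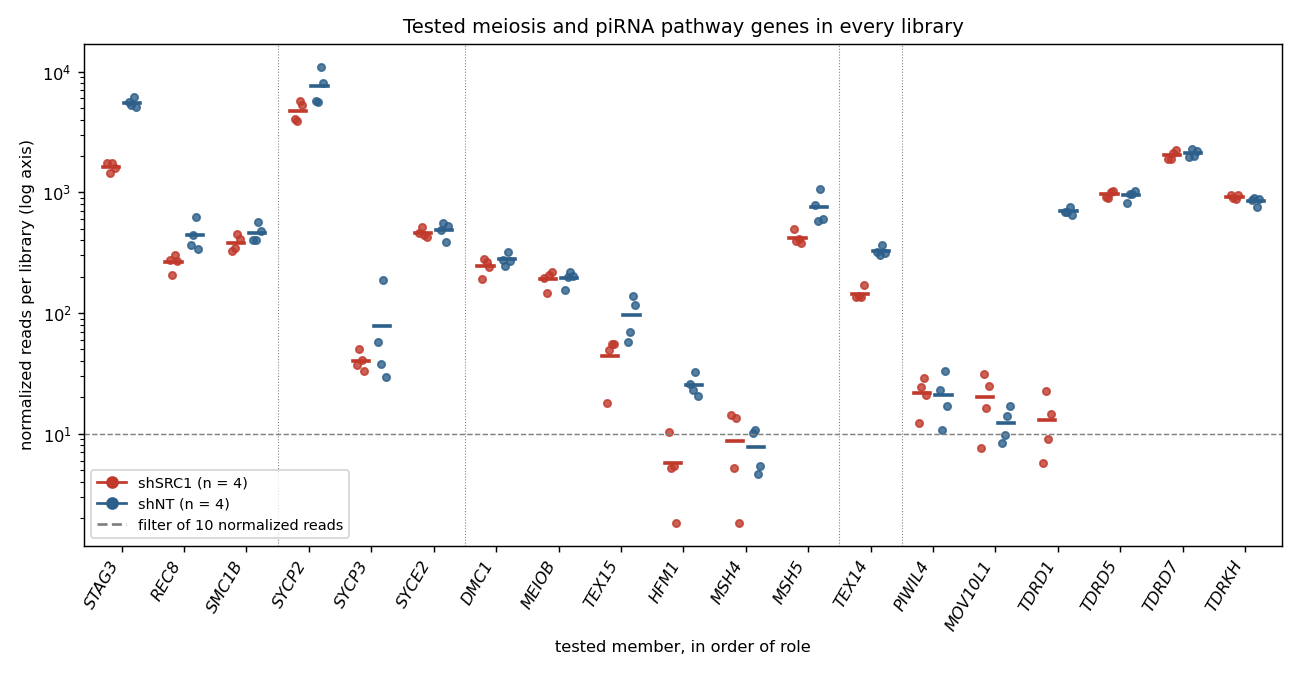
Normalized reads of the 19 tested members in every library on a log axis, shSRC1 in red on the left and shNT in blue on the right of each gene, with a bar at each group mean (n = 4 each) and dotted lines between roles. TDRD1 lies at 5.70 to 22.7 in shSRC1 and 653 to 749 in shNT.

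Start-region sequences are shown for the 3 members with the largest falls that have an entry (TDRD1, HFM1 and STAG3), and for TDRD7, a Tudor gene whose level hardly differed. They come from RefSeq on GRCh38.p14, cover 250 bases before to 50 after the annotated start, and run 5′ to 3′ on the gene's strand. The files themselves were made on another build, GRCh37. Capitals mark CACGTG, the E-box read by MAX partners such as MGA and MYC, and GGCGGGA, a core of E2F sites, each searched on both strands. Both factor families belong to machinery known to hold germline genes off in mouse embryonic stem cells.
TDRD1 (chr10:114179037-114179336, plus strand): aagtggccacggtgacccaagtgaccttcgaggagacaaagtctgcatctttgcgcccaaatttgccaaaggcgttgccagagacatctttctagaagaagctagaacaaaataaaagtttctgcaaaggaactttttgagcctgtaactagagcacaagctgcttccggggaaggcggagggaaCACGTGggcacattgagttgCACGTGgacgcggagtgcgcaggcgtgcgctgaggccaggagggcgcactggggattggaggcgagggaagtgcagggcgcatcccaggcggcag
STAG3 (chr7:100177474-100177773, plus strand): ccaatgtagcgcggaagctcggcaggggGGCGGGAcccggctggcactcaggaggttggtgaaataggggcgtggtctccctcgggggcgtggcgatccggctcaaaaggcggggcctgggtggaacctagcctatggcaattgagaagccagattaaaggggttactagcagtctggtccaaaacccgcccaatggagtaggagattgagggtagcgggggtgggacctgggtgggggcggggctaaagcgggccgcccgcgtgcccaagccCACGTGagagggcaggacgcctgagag
HFM1 (chr1:91404686-91404985, minus strand): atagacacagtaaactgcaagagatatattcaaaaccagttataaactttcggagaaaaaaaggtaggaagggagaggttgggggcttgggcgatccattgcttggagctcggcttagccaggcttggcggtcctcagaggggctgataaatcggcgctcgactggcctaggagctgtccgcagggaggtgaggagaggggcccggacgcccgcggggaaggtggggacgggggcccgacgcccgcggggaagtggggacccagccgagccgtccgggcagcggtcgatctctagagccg
TDRD7 (chr9:97411846-97412145, plus strand): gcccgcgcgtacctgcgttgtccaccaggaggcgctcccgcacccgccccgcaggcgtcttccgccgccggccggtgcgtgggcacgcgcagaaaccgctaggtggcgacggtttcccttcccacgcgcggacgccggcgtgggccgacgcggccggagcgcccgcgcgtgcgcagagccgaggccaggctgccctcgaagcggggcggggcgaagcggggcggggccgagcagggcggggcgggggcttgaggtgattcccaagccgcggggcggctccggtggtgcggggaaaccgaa
TDRD1 held 2 E-boxes, and STAG3 held 1 E-box and 1 E2F core that do not overlap, while HFM1 and TDRD7 held neither string. These are matches of letters and do not show binding.

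An entry was found for 33 of the 40 members; TEX12, MEIOB, TEX15, HORMAD1, TEX14, PIWIL2 and PIWIL4 had none. An E-box stood in 2 of the 33 members (6.06%, TDRD1 and STAG3), beside 7.26% of all 35116 RefSeq start regions of 300 bases, which include noncoding genes. The E2F core stood in 12 of the 33 (36.4%), beside 15.4% of all start regions. The members' windows were rich in CpG, with a median of 26.0 CpG per 300 bases beside 14 over all start regions. The E2F core itself holds a CpG, and the part of CpG content in its higher share was not tested. The median was 26.0 in 15 tested and 26.5 in 18 untested members. CpG counts ran from 0 in STRA8 and 1 in DDX4 to 60 in MAEL, none of which was tested.

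Meiotic cohesin differs from mitotic cohesin in carrying STAG3, the subunit SMC1B and the kleisins REC8 or RAD21L1, and 3 of these 4 genes were tested. STAG3 (ENSG00000066923, chromosome 7) had 1763, 1443, 1733 and 1579.9 normalized reads in shSRC1, against 5588, 5257, 6188 and 5122 in shNT. Every shSRC1 library was far below every shNT library, and the spread within each group was small. STAG3 averaged 1630 ± 148 in shSRC1 and 5539 ± 475 in shNT (SD, n = 4 each), 3.40-fold lower. On the log2 scale that is -1.76 ± 0.09 (SE), with a 95% confidence interval from -1.96 to -1.57 (adjusted p = 7.54e-09 by limma). By an exact two-sided permutation test p was 0.0286, the lowest possible with 4 libraries in each group.

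STAG3 has several partial copies in the genome that could take its reads. STAG3L5P averaged 950 ± 89.7 in shSRC1 and 1633 ± 383 in shNT, and STAG3L2 1429 ± 96.9 in shSRC1 and 1881 ± 235 in shNT (SD, n = 4 each). STAG3L3 was lower by 0.40 and STAG3L2 by 0.39 on the log2 scale, whereas STAG3L5P fell by 0.76 (limma adjusted p = 0.0159, 0.0110 and 0.00145 in that order). STAG3L4 had a log2 fold change of 0.18 and STAG3L1 of -0.34 (limma adjusted p = 0.213 and 0.0591). The readthrough gene STAG3L5P-PVRIG2P-PILRB, named in part for the STAG3 neighbour PILRB, had a log2 fold change of -0.82 (limma adjusted p = 0.00924). No copy fell as far as STAG3 did. How the counting split reads among these copies is not given in the sources used here.

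REC8 (ENSG00000100918), the kleisin that closes the meiotic cohesin ring, had 277, 206, 302 and 269 normalized reads in shSRC1, against 363, 439, 622 and 341 in shNT. The groups did not overlap, but the gap was narrow and shNT replicate 3 stood above its group. REC8 averaged 263 ± 40.5 in shSRC1 and 441 ± 128 in shNT (SD, n = 4 each), or -0.71 ± 0.18 (SE) on the log2 scale (adjusted p = 0.0106 by limma). Without shNT replicate 3 the log2 fold change was -0.54 (limma adjusted p = 0.0153). Exons of REC8 overlap IPO4 on the opposite strand, which had a log2 fold change of 0.15 (limma adjusted p = 0.243). SMC1B had 325 to 449 in shSRC1 and 401 to 571 in shNT, overlapping groups with a log2 fold change of -0.27 (95% confidence interval -0.57 to 0.02, limma adjusted p = 0.165). RAD21L1, the other meiotic kleisin, was not tested, with 7 reads in shSRC1 and 14 in shNT over 4 libraries each.

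**Figure D2:**
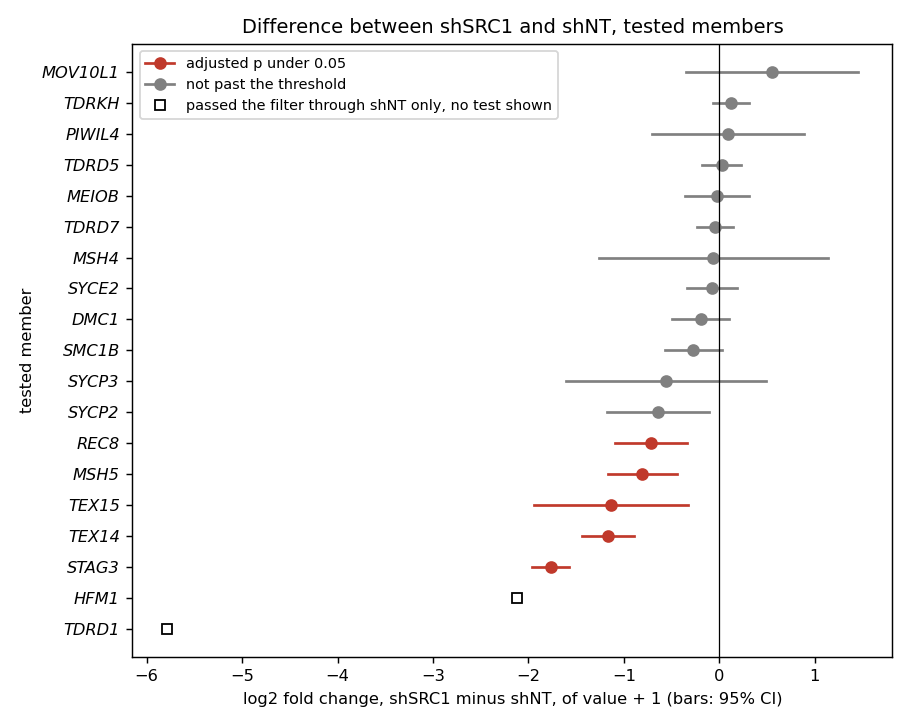
Log2 fold change of each tested member, shSRC1 minus shNT on the log2(value + 1) scale, with 95% confidence intervals; red marks an adjusted p under 0.05, and open squares, with no interval or call, the 2 members that passed the filter only through shNT. TDRD1 stands at -5.79 and the largest positive value, MOV10L1, at 0.55 with an interval that crosses 0.

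Synaptonemal complex genes were uneven: SYCP2, SYCP3 and SYCE2 passed the filter, and SYCP1, SYCE1, SYCE3 and TEX12 did not. SYCP2, which builds the lateral element with SYCP3, had 4083, 3872, 5737 and 5301 normalized reads in shSRC1, against 5748, 5559.5, 10961 and 8109.7 in shNT. The groups touched, since shSRC1 replicate 3 lay just below shNT replicate 1 and above shNT replicate 2. SYCP2 averaged 4748 ± 912 in shSRC1 and 7594 ± 2526 in shNT (SD, n = 4 each), and its log2 fold change of -0.64 (95% confidence interval -1.18 to -0.11) missed the threshold (limma adjusted p = 0.0827). Per kb of longest transcript it was the most abundant of the tested members, at 853 normalized reads per kb in shSRC1 and 1364 in shNT. STAG3 followed in shNT at 1245 normalized reads per kb, with 366 in shSRC1.

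SYCP3 had 37.0, 50.7, 40.9 and 33.0 normalized reads in shSRC1, against 57.5, 38.2, 186.6 and 29.6 in shNT. One library, shNT replicate 3, carried the difference in means: the log2 fold change was -0.56 (SE 0.48, limma adjusted p = 0.416) and -0.012 without it. SYCE2, a central element gene, had 427 to 516 in shSRC1 and 389.9 to 557 in shNT, with a log2 fold change of -0.08 (95% confidence interval -0.34 to 0.18). On the opposite strand, SYCP3 exons overlap CHPT1, which averaged 8557 normalized reads in shSRC1 and 7624 in shNT. Those of SYCE2 overlap GCDH, at 2019 in shSRC1 and 1619 in shNT (log2 fold change 0.32, limma adjusted p = 0.0206). The counting is not stated to use strand, and the part of such reads in SYCP3 and SYCE2 was not tested. SYCP1, the transverse filament that joins the lateral elements, had 2 reads in shSRC1 and 3 in shNT, so lateral element transcripts were present with hardly any of the filament. SYCE3 had 16 reads in shSRC1 and 5 in shNT, TEX12 had 2 in shSRC1 and 9 in shNT, and SYCE1 had none in any library.

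Recombination genes split the same way. SPO11, which makes the programmed breaks, had 6 reads in shSRC1 and 1 in shNT. MEI1, needed for break formation in mice, had 10 reads in shSRC1 and 21 in shNT, while PRDM9, which marks the hotspots, had none in any library. Of the genes that act after the break, some were expressed and others were near or under the filter. DMC1, the meiotic recombinase, had 192, 282, 264 and 239 normalized reads in shSRC1, against 275, 245, 323 and 268 in shNT, and its overlapping groups gave a log2 fold change of -0.19 (95% confidence interval -0.49 to 0.11, limma adjusted p = 0.329). MEIOB, a single-strand DNA-binding partner in meiotic recombination, averaged 192 ± 32.3 in shSRC1 and 194 ± 27.3 in shNT (SD, n = 4 each), a log2 fold change of -0.03 (95% confidence interval -0.36 to 0.31). MEIOB exons overlap FAHD1 on the opposite strand, which averaged 6264 in shSRC1 and 4925 in shNT (log2 fold change 0.36, limma adjusted p = 0.0177). They also overlap the noncoding gene LINC00254 on the same strand, which has no values here. The part of such reads in MEIOB was not tested.

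MSH4 and MSH5 form a pair that stabilises crossover intermediates, and their levels were far apart. MSH5 (ENSG00000204410, chromosome 6) had 498, 397, 409 and 384 normalized reads in shSRC1, against 787, 580.2, 1056 and 603 in shNT. All shSRC1 libraries lay below all shNT libraries, with shNT replicate 3 again highest. MSH5 averaged 422 ± 51.9 in shSRC1 and 756 ± 220 in shNT (SD, n = 4 each), or -0.80 ± 0.17 (SE) on the log2 scale (adjusted p = 0.00421 by limma), and -0.63 without shNT replicate 3 (limma adjusted p = 0.00307). Another 7 entries with the symbol MSH5 were at 0 in every library. MSH5 shares exons with the readthrough gene MSH5-SAPCD1 and with SAPCD1, so its reads cannot be fully told apart from theirs; SAPCD1 had a log2 fold change of -1.30 (limma adjusted p = 0.00896).

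MSH4 had 14.2, 5.25, 13.6 and 1.83 normalized reads in shSRC1, against 10.2, 10.7, 4.64 and 5.38 in shNT. It was the member closest to the rule's limit, with exactly 4 libraries at or over 10, and its groups overlapped (log2 fold change -0.06, 95% confidence interval -1.26 to 1.14). MOV10L1 and HFM1 were next, with 5 such libraries each. Just outside, the highest single values were 7.60 for SYCE3, 7.43 for MEI1 and 7.00 for TDRD9 and ASZ1.

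HFM1 (ENSG00000162669), a helicase of the crossover pathway, had 10.4, 5.25, 5.45 and 1.83 normalized reads in shSRC1, against 26.0, 23.1, 32.5 and 20.6 in shNT, from 22 reads in shSRC1 and 112 in shNT. The groups did not overlap, and the mean was 4.45-fold lower in shSRC1; HFM1 was tested only because it passed in shNT, so no p is given. TEX15, needed for break repair in mouse meiosis, had 18.0, 49.0, 55.4 and 55.0 in shSRC1, against 57.5, 70.2, 139 and 117.5 in shNT. The highest shSRC1 and lowest shNT values nearly met. TEX15 differed by -1.13 ± 0.37 (SE) on the log2 scale (adjusted p = 0.0450 by limma), and over 19 alternative settings the adjusted p ran from 0.0023 to 0.117, with 11 past the threshold. The log2 fold change was -0.76 without shSRC1 replicate 1 (limma adjusted p = 0.0935) and -0.92 without shNT replicate 3 (limma adjusted p = 0.117). TEX11, a crossover factor on chromosome X, had 2 reads in shSRC1 and 1 in shNT.

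The genes of meiotic entry and of the axis checkpoint were silent. STRA8, the retinoic acid target that starts meiosis, had 1 read in each group, the RNA-binding gene DAZL had none in shSRC1 and 1 in shNT, the axis gene HORMAD1 had 1 read in each group, and its relative HORMAD2 had none in any library. TEX14 (ENSG00000121101, chromosome 17), a germ cell gene that keeps the bridges between dividing germ cells open, was expressed. It had 137, 138, 136 and 169.5 normalized reads in shSRC1, against 321, 305, 365 and 315 in shNT. The 2 groups were tight and well apart. TEX14 averaged 145 ± 16.2 in shSRC1 and 326 ± 26.5 in shNT (SD, n = 4 each). On the log2 scale this is -1.17 ± 0.13 (SE), with a 95% confidence interval from -1.44 to -0.90 (adjusted p = 1.94e-05 by limma).

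**Figure D3:**
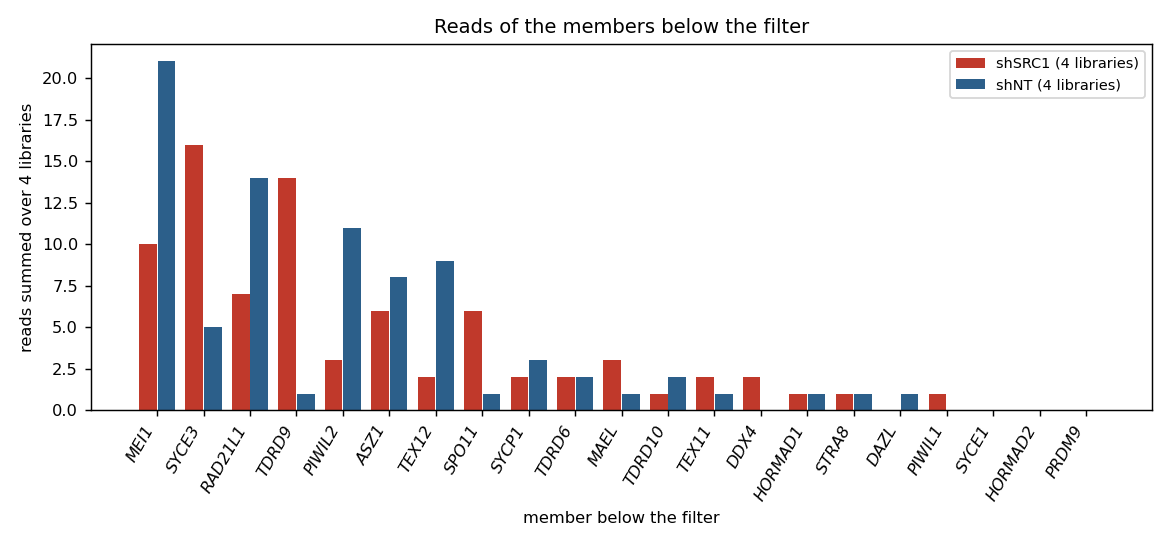
Reads recovered for each of the 21 members below the filter, summed over the 4 shSRC1 libraries (red) and the 4 shNT libraries (blue). The sums reach 21 reads at most (MEI1 in shNT), and SYCE1, HORMAD2 and PRDM9 have none.

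Of the 14 piRNA pathway genes, 6 were tested; TDRD1 was far lower in shSRC1, and the other 5 did not pass the test. TDRD1 (ENSG00000095627, chromosome 10), a Tudor scaffold that binds PIWI proteins, had 5.70, 22.7, 9.09 and 14.7 normalized reads in shSRC1, against 686, 692, 749 and 653 in shNT. The shNT libraries were close together, and the highest shSRC1 library was still far below them. It averaged 13.05 ± 7.45 in shSRC1 and 695 ± 39.96 in shNT (SD, n = 4 each), from 45 reads in shSRC1 and 3053 in shNT, 53.3-fold lower in shSRC1. Only 2 of the 19559 tested genes had a lower log2 fold change than its -5.79 (SE 0.30). As TDRD1 passed the filter through shNT, no p is given, and its rank and SE are description only.

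The other 3 tested Tudor genes did not pass the test (limma adjusted p = 0.714 for TDRD7, 0.877 for TDRD5 and 0.315 for TDRKH). TDRD7, also known from the lens, had 1902, 1896, 2106 and 2229 normalized reads in shSRC1, against 1943, 2269, 1982 and 2216 in shNT. TDRD5, a germ granule gene, had 915, 905, 1001 and 1032 in shSRC1, against 823, 971, 970.2 and 1032 in shNT. TDRKH, which sits on mitochondria where piRNAs are trimmed, had 944, 905, 882 and 953 in shSRC1, against 857, 892, 751 and 881 in shNT. The groups of all 3 genes overlapped. Their log2 fold changes were -0.05, 0.02 and 0.13, with 95% confidence intervals of -0.24 to 0.14, -0.18 to 0.23 and -0.06 to 0.32 in that order. Exons of TDRKH overlap OAZ3 and TDRKH-AS1 on the opposite strand, and the counting is not stated to use strand.

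Transcripts of the PIWI genes in the set were at or near the floor. PIWIL1 had 1 read in shSRC1 and none in shNT, and PIWIL2 had 3 in shSRC1 and 11 in shNT. PIWIL4 was the exception, with 12.3, 24.5, 29.1 and 21.1 normalized reads in shSRC1, against 23.2, 10.7, 33.4 and 17.04 in shNT. Its groups overlapped, and its log2 fold change of 0.09 had a 95% confidence interval of -0.70 to 0.89. PIWIL4 shares exon sequence with FUT4 on the same strand, which averaged 306 in shSRC1 and 259 in shNT. The PIWIL4 reads therefore cannot be fully told apart from those of FUT4. MOV10L1, the helicase that feeds piRNA precursors into processing, had 7.60, 31.5, 16.4 and 24.7 in shSRC1, against 8.35, 9.77, 13.9 and 17.04 in shNT, again overlapping (log2 fold change 0.55, 95% confidence interval -0.35 to 1.45, limma adjusted p = 0.357).

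DDX4, the germ cell helicase also called Vasa, had 2 reads in shSRC1 and none in shNT, and MAEL had 3 in shSRC1 and 1 in shNT. TDRD6 had 2 reads in each group, TDRD10 had 1 in shSRC1 and 2 in shNT, and ASZ1 had 6 in shSRC1 and 8 in shNT. TDRD9, a Tudor helicase, had 14 reads in shSRC1 and 1 in shNT, so its normalized rate in shSRC1 was 16.1 times that in shNT, with exact 95% bounds from counting of 2.45 and 682. That interval covers counting error only, and at 0.92 to 7.00 normalized reads per shSRC1 library the gene stayed under the filter. In all, 3 of the 21 untested members had no read, 11 had 1 to 10 and 7 had more than 10; a count of 0 in a library allows up to 3 reads, or 2.67 to 5.25 normalized reads.

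The largest member changes sat in different surroundings on the chromosome. Among the 8 nearest tested protein-coding genes of STAG3 (gene order from GENCODE 29), 6 were lower in shSRC1 with a median log2 fold change of -0.64. On chromosome 7 as a whole 17.4% of 661 tested protein-coding genes were lower, and the median was -0.056. The neighbours GAL3ST4 and GPC2 had log2 fold changes of -1.75 and -1.19 (limma adjusted p = 3.12e-04 and 5.25e-05). Between STAG3 and ZCWPW1, a reader of the PRDM9 mark that is no member of the set, all 5 tested genes were lower, with a median of -0.67. All of these but PILRA are also among the 8 neighbours counted above. ZCWPW1 averaged 272 ± 25.9 normalized reads in shSRC1 and 465 ± 28.1 in shNT (SD, n = 4 each), a log2 fold change of -0.77 (limma adjusted p = 2.24e-04). Several genes of this stretch, such as PVRIG, overlap STAG3 or each other.

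Around TDRD1, 5 of 8 neighbours were lower, with a median of -0.36. Of these, VWA2 next to it had a log2 fold change of -2.46, with means of 5.10 normalized reads in shSRC1 and 24.5 in shNT. Its shSRC1 mean lay under 10, so VWA2 leaned on shNT to pass the filter and no p is given. VWA2 is still counted among the 5. The other lower neighbours were DCLRE1A, NHLRC2, C10orf118 and ABLIM1, with log2 fold changes of -0.50, -0.54, -0.56 and -0.22. On chromosome 10 as a whole 35.6% of 525 tested protein-coding genes were lower, and the median log2 fold change was -0.20. Around HFM1, 1 of 8 neighbours was lower and 1 higher, and around TEX14, 1 was lower and 2 higher. The 8 neighbours of TEX15 had a median of 0.11, and their smallest limma adjusted p was 0.101. Around MSH5 and REC8, 1 of 8 each was lower. What these surroundings contribute to the members' differences was not tested.

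**Figure D4:**
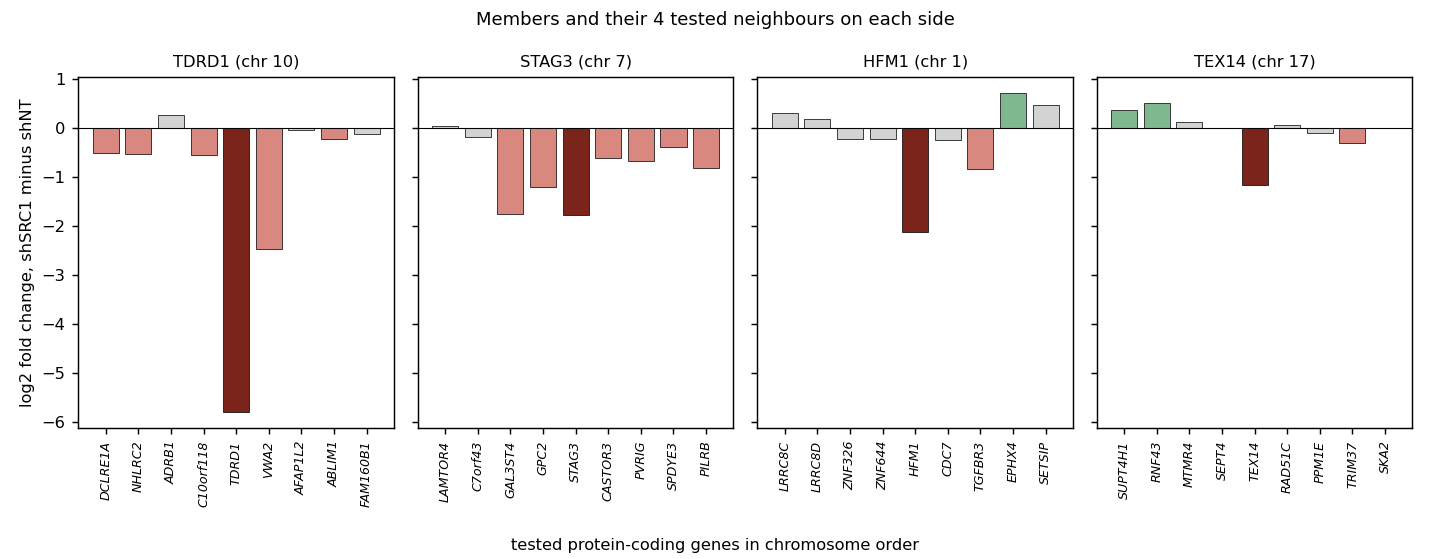
Log2 fold changes, shSRC1 minus shNT, of TDRD1, STAG3, HFM1 and TEX14 (dark red) and of the 4 tested protein-coding genes on each side in chromosome order. Pale red marks neighbours with lower and green neighbours with higher expression at an adjusted p under 0.05. VWA2 beside TDRD1 is coloured too, though it leaned on shNT to pass the filter. Of the neighbours, 6 of 8 of STAG3 and 1 of 8 of TEX14 are lower.

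Replicate 3 of shNT was the highest of all 8 libraries for 13 of the 19 tested members, while this held for 23.8% of all tested genes. It also held a read for the most genes, 32239, beside 28318 to 29415 in shSRC1 libraries and 29060 to 30651 in the other shNT libraries. Without it, STAG3 had a log2 fold change of -1.71 and TEX14 of -1.11 (limma adjusted p = 1.59e-08 and 4.20e-05). TDRD1 stood at -5.75 and HFM1 at -2.01 without that library.

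**Figure D5:**
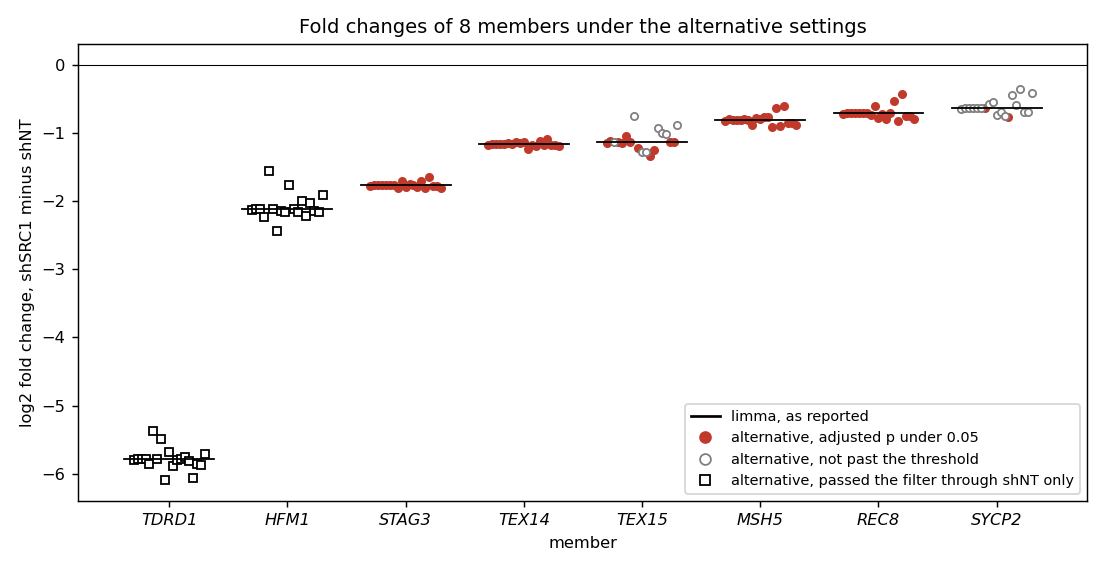
Log2 fold changes of 8 members, shSRC1 minus shNT, under the alternative settings (points) and as reported (line); filled points have an adjusted p under 0.05, and open squares mark the 2 members that passed the filter only through shNT, with no call shown. STAG3 lies between -1.81 and -1.65 throughout, while TEX15 loses the threshold in 8 of 19 settings and SYCP2 passes it in 2.

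Other genes of these pathways, from lists that do not hold the members, gave the counts below. Across all tested genes, 11.2% were lower and 12.0% higher by the same test. The counts of these lists, from further meiosis genes to Argonaute genes, were not tested against those shares. Of 20 tested further meiosis genes, 2 rose, 2 fell and 16 did not pass, with a list median of -0.23. CCNB1IP1, a crossover-linked ubiquitin ligase, had a log2 fold change of 0.48 and MEI4, a break-formation gene, of 0.75 (limma adjusted p = 0.00357 and 0.0219). MEI4 averaged 54.3 ± 9.30 normalized reads in shSRC1 and 31.6 ± 0.93 in shNT (SD, n = 4 each). TRIP13, which remodels HORMA proteins and also acts in mitosis, fell by 0.33 on the log2 scale (limma adjusted p = 0.00986), and ZCWPW1, described above, was the other fall. Of 7 tested further piRNA genes, PLD6, the mitochondrial nuclease known as Zucchini in flies, rose by 0.43 (limma adjusted p = 0.00955) and the other 6 did not pass, with a list median of 0.07.

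Of 15 mitotic cohesin genes, 4 fell, 0 rose (0 also without adjustment, in edgeR and in DESeq2) and 11 did not pass in limma, with a list median of -0.20. SMC3, a ring subunit shared by mitotic and meiotic cohesin, averaged 2567 ± 381 normalized reads in shSRC1 and 4395 ± 975 in shNT (SD, n = 4 each), a log2 fold change of -0.76 (limma adjusted p = 0.00281). PDS5B, WAPAL and SGOL2, which regulate cohesin release or protection, fell by 0.44, 0.33 and 0.60. SMC3 and WAPAL lie on chromosome 10, and PDS5B on chromosome 13, where the median tested protein-coding gene stood at -0.22. Of 29 somatic recombination and mismatch repair genes, 2 rose and 6 fell. BRCA1, PMS1, RAD51D and RPA1 had the smallest adjusted p, with log2 fold changes of -0.54, -0.59, 0.34 and 0.39 (limma adjusted p = 0.00326 to 0.00878).

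Of 29 tested genes for germline gene silencing, 5 rose and 1 fell. MAX, the E-box factor that partners MGA, rose to 4212 ± 142 normalized reads in shSRC1, against 3262 ± 403 in shNT (SD, n = 4 each), a log2 fold change of 0.38 (limma adjusted p = 0.0104). MGA itself leaned the other way, at 142 ± 18.5 in shSRC1 and 201 ± 42.8 in shNT (SD, n = 4 each). Its log2 fold change of -0.48 just missed the threshold (limma adjusted p = 0.05004). E2F6 did not pass either (log2 fold change -0.11, limma adjusted p = 0.342). The methyl-CpG binding gene MBD2 rose by 0.52 and RYBP, a Polycomb subunit, by 0.33, and TET1, which oxidises methylated DNA, fell by 0.67. MBD2 lies on chromosome 18, where 51.4% of tested protein-coding genes were higher, and TET1 on chromosome 10. Of 21 Argonaute and small RNA genes, 3 rose and 3 fell. The arginine methyltransferase PRMT5, which prepares PIWI proteins for Tudor binding, rose by 0.33, and the miRNA pathway genes DICER1 and TNRC6B fell by 0.34 and 0.28. The splicing gene SMNDC1, on chromosome 10, fell by 0.23.

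Of 8 markers of mature male germ cells, 6 were at or near 0. PRM1, PRM2, TNP1, TNP2, AKAP4 and ODF1 averaged 0.93 normalized reads or less in each group, and 4 of the 8 markers had no read. SPATA18 averaged 832 in shSRC1 and 604 in shNT, higher by 0.46 on the log2 scale (limma adjusted p = 0.00186). ACRV1 averaged 31.8 in shSRC1 and 48.8 in shNT (limma adjusted p = 0.0908). Sertoli and Leydig markers summed to 1326 to 1681 in shSRC1 and 1680.2 to 1959 in shNT, mostly INHA and AMH. AMH had a log2 fold change of -0.56 (limma adjusted p = 0.0306), but its groups overlapped. AMH ran from 456 to 728 in shSRC1 and from 684 to 1025 in shNT (exact permutation test p = 0.0857). The Sertoli marker FSHR and the Leydig marker HSD3B2 had no read in any library.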

How the data were processed

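Poly(A)-selected RNA in 4 shSRC1 and 4 shNT libraries of LY2 cells was sequenced. The signal the authors deposited is reads per gene scaled by a size factor. The submitters' processing notes list HTSeq 0.6.1, TopHat2 2.0.12, DESeq and DESeq2, and the build GRCh37. How reads were counted, and on which annotation, is not given in the sources used here. Within each library 100.0% of values were whole multiples of 1 step (within 0.001 reads), which gave back whole reads; on these edgeR called 4637 genes and DESeq2 5304, beside 4538 in limma.

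Fold changes are shSRC1 minus shNT of log2(value + 1), which understates changes of low genes. Genes with at least 10 in at least 4 libraries (19559) were tested with limma 3.58.1 (trend, robust, R 4.3.3), two-sided, Benjamini-Hochberg adjusted over all of them, threshold 0.05, no block. The script recovered known changes in data simulated with the same spread setting for all genes. Those data had no GC differences between libraries and so were simpler than the real ones. Alternatives were TMM and upper-quartile scaling, no filter, a minimum of 50, pseudocounts 0.5 and 5, leaving out each library, the replicate number as a block, edgeR 4.0.16 and DESeq2 1.42.0 on recovered reads, and a length and GC correction (96.1% of tested genes had both). Another, without shNT replicate 3 and shSRC1 replicate 2, was chosen after seeing the data. All members are named, and up to 4 called genes per list by smallest adjusted p; genes beyond these, such as the STAG3 copies, were chosen after values were seen. Members and lists were chosen with earlier results of these data known. GENCODE 29 (GRCh38) gave gene order, chromosome and length by Ensembl identifier. No 2 libraries were identical.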

Additional observations from a re-analysis of the deposited data

Results flagged for a closer look

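The value of TEX14 in shSRC1 replicate 4, 169.5 normalized reads, stood apart from the other 3 shSRC1 libraries, which held 136 to 138. The read total of shSRC1 replicate 2, 33771775, stood apart from the other shSRC1 libraries at 65321247 to 66248960. These are 2 flags among 42 groups of 4 values examined, and chance flags about 1 in 20 such groups.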

How the results depend on the processing

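NCOA1, STAG3, REC8, MSH5 and TEX14 kept their direction and their side of the threshold under all 19 alternatives. The log2 fold changes of TDRD1 and HFM1, given with no test, ran from -6.09 to -5.37 and from -2.43 to -1.55. Of the further meiosis genes 4 were lower in edgeR and 6 in DESeq2, in place of 2, and of the silencing genes 2 and 3, in place of 1. With no filter on low values 1 member, TDRD9, was called higher (log2 fold change 1.91, limma adjusted p = 0.0391). Leaving out 1 library gave 3124 to 4776 genes called in place of 4538 and 6 to 8 members called lower in place of 7, with NCOA1 at -1.15 to -1.08. These member counts include TDRD1 and HFM1, which passed the filter only through shNT. A few members near 0 changed sign without passing the threshold, and the cause was not tested. MEIOB stood at -0.13 to 0.10 when 1 library was left out, at 0.16 without shNT replicate 3 and shSRC1 replicate 2 together, and at 0.068 with length and GC correction. MSH4 stood at -0.25 to 0.43 when 1 library was left out, at 0.019 with a pseudocount of 5, 0.21 in edgeR, 0.19 in DESeq2 and 0.070 with length and GC correction. PIWIL4 ran from -0.18 to 0.34 and TDRD5 from -0.043 to 0.066 when 1 library was left out, and TDRD5 stood at -0.0081 with length and GC correction. MSH4 could not be tested under a minimum of 50 or without some libraries, because it then fell under the filter.

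The samples were not treated as paired. Correlations of same-numbered deviations were 0.24, -0.010, 0.13 and 0.14 for replicates 1 to 4; replicates 1, 3 and 4 of shSRC1 correlated best with their own number, a hint from the data and not the design, and shSRC1 replicate 2 with shNT replicate 1. With the replicate number as a block, 6398 genes and 9 members were called, the last adding SYCP2 (limma adjusted p = 1.33e-04) and SMC1B (limma adjusted p = 0.0388). TDRD1 and HFM1, which passed the filter only through shNT, are among the 9. Libraries differed in how their values followed GC content, with Spearman's rho across genes, which are not independent replicates, from -0.22 to 0.48. For members with a few reads, counting error limits any comparison, as the bounds given for TDRD9 show.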

Other observations

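C14orf39, also known as SIX6OS1, a synaptonemal complex gene of the further meiosis list, had 7.60, 199, 10.9 and 12.8 normalized reads in shSRC1, against 11.1, 5.33, 2.79 and 13.5 in shNT. Replicate 2 of shSRC1 alone was high, and the gene did not pass the test (limma adjusted p = 0.280). BOLL, a germ cell RNA-binding gene of the DAZ family, had 27.5, 40.2, 31.8 and 21.1 in shSRC1, against 77.9, 23.1, 165 and 35.0 in shNT, with shNT replicates 1 and 3 high and the groups overlapping (limma adjusted p = 0.216). Both genes were picked after their values were seen.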
